A study of Mus musculus with 8 samples.

Results

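The 10 genes described here encode transcription factors that act in the oocyte while follicles form and grow: Sohlh1, Sohlh2, Figla, Nobox, Lhx8, Taf4b, Tbpl2, Bnc1, Zfp57 and Nr6a1. They were taken from a list of symbols, matched to exon identifiers through the GENCODE M21 annotation, and are 10 of the 52502 genes to which the deposited exon identifiers belong. Of these, 6 had enough counts for the gene-level test, which covered 10673 genes. The libraries came from fully grown mouse oocytes still arrested at the germinal vesicle (GV) stage, in which meiosis has not resumed. All were from C57BL/6 females labelled 20 days old, and 3 weeks old in the treatment notes, that received 5 IU of pregnant mare serum gonadotropin, a hormone that drives antral follicles to grow. Oocytes at least 70 µm wide were released 48 h later into medium with milrinone, which holds them at the GV stage. The 4 control libraries carried the genotype Kiaa1429F/+;Zp3-Cre and the 4 knockout (cKO) libraries Kiaa1429F/F;Zp3-Cre, so both groups carried the Cre and at least 1 conditional allele. Zp3-Cre is active in growing oocytes, so the gene is lost after the primordial stage in which several of these factors first act. Kiaa1429, now named Virma, encodes a subunit of the methyltransferase that places N6-methyladenosine (m6A) marks in messenger RNA. Each library held about 20 oocytes and the samples came from 4 experiments. The labels do not tie a library to an animal, and the p-values therefore speak of the spread among libraries, which may be technical.

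A primordial follicle holds a small resting oocyte, and its oocyte depends on germ cell factors of the basic helix-loop-helix (bHLH), homeobox and LIM-homeobox families. SOHLH1 and SOHLH2 act early and lie upstream of Lhx8, Nobox and Figla, which in turn act on genes for the zona pellucida and for secreted growth factors. Once the oocyte grows, its transcription machinery changes: TBPL2 stands in for the TATA-binding protein TBP, and TAF4B is a gonadal subunit of the TFIID complex. Transcription falls silent in the fully grown oocyte, so RNA levels at this stage depend on stored transcripts as well as on synthesis.

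Exon counts per library ran from 4247471 to 5064008. These were only 14.6% to 15.6% of the reads listed as counted, ambiguous or without a feature. Most were listed as ambiguous between exon identifiers: 72.9% to 75.4% in controls and 78.8% to 80.4% in cKO libraries. Reads without a feature made up 9.86% to 12.0% in controls and 5.01% to 6.19% in cKO libraries. The part of these differences in the results was not tested. A value thus rests on the bases of an exon that no other exon identifier covers. Levels are given as CPM, exon counts scaled to a common library size with the trimmed mean of M-values (TMM). Virma itself fell from 67.9 ± 11.2 to 19.4 ± 3.26 CPM (SD, n = 4 each), with no overlap between groups (log2 fold change -1.81, SE 0.18; edgeR adjusted p = 1.02e-06 by edgeR's quasi-likelihood test with Benjamini-Hochberg adjustment, as for every adjusted p below). All 10 oocyte markers had enough counts to be tested, and their summed level was 38433 ± 5913 CPM in controls and 21508 ± 1685 CPM in cKO libraries. That difference in the sum lay in Bmp15 and Gdf9, which together summed to 32381 ± 5639 and 15464 ± 1533 CPM. The other 8 summed to 6052 ± 348.0 and 6044 ± 182.7 CPM. Among those 8, Dppa3 was called higher (log2 fold change 0.41) and Ddx4, Nlrp5 and Zp1 were called lower (-1.14, -0.43 and -0.46). Of all 10, 1 (10%) was called higher and 5 (50%) lower at an adjusted p under 0.05, beside 27.0% and 27.9% of all genes tested. Markers of other cell types were also present and some differed between the groups, as given with the marker lists.

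Among the 6 tested factors, Sohlh2 rose and Bnc1 fell, while Nobox, Figla, Taf4b and Tbpl2 did not pass the test at the gene level. Over all 10673 genes, 27.0% were called higher and 27.9% lower at an adjusted p under 0.05, so 1 call in each direction among 6 genes is close to the background. The median log2 fold change of the 6 was -0.16, against 0.02 over all genes tested. The groups of 4 libraries did not overlap for 2 of the 6, Sohlh2 and Bnc1, and for 50.1% of all genes tested. Because each library is a bulk sample, fewer cells with a transcript and less RNA per cell cannot be told apart.

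**Figure D1:**
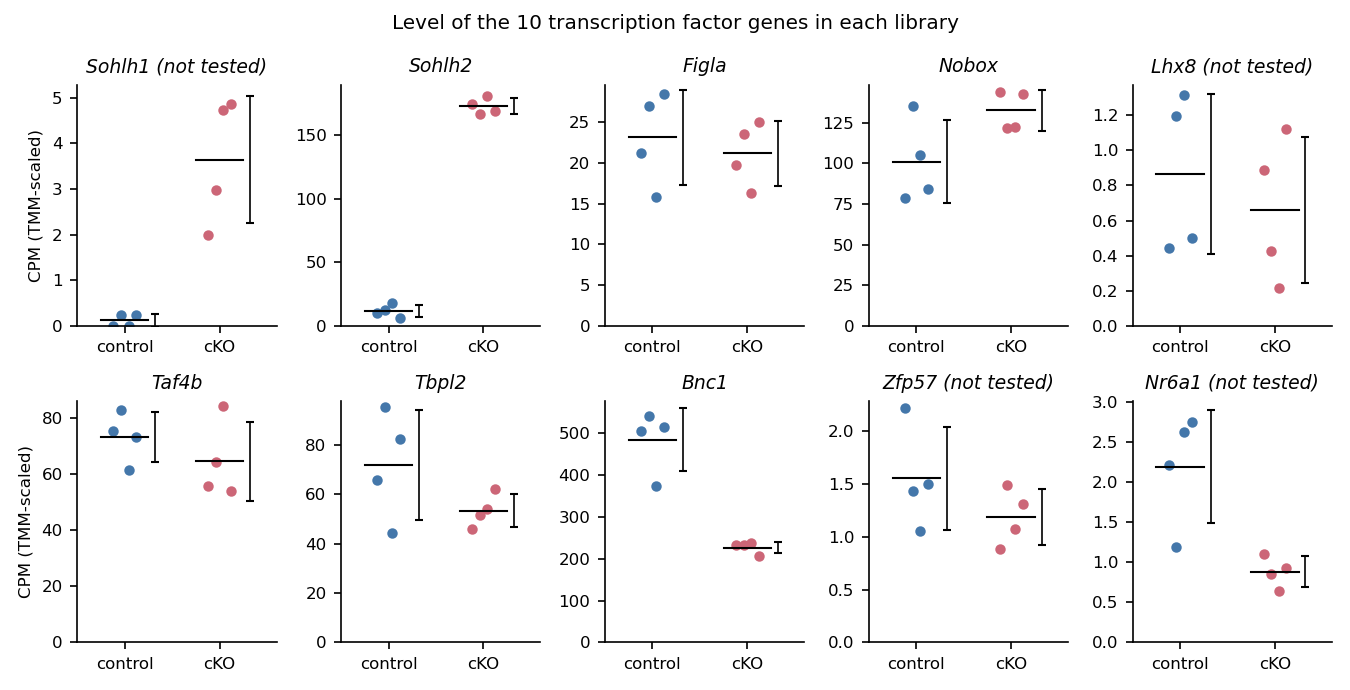
TMM-scaled CPM (vertical axes, from 0, one scale per gene) of the 10 genes in the 4 control (blue) and 4 cKO (red) libraries; points are libraries, horizontal lines group means and vertical bars 1 SD. The cKO points stand apart from the controls for Sohlh1, Sohlh2, Bnc1 and Nr6a1 and overlap them for the other genes; the 4 genes marked "not tested" had too few counts for the test.

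Sohlh2 and its partner Sohlh1 encode bHLH proteins of germ cells that are known to pair with each other and to be switched down as oocytes leave the primordial pool. Both had higher counts in the cKO libraries. As bHLH factors bind E-boxes, the 250 bases before each start site are shown, with every match to CANNTG in capitals (both strands; the motif reads the same on each). The sequences are from RefSeq on GRCm38.p6: Sohlh1 at chr2:25847249-25847498 on the minus strand and Sohlh2 at chr3:55181794-55182043 on the plus strand, each written 5′ to 3′ towards the gene.

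Sohlh1: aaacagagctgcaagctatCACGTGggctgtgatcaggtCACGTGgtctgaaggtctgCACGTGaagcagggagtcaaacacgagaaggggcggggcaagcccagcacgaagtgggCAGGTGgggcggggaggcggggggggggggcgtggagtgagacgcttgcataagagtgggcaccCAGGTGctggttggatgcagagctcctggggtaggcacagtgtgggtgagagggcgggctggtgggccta
Sohlh2: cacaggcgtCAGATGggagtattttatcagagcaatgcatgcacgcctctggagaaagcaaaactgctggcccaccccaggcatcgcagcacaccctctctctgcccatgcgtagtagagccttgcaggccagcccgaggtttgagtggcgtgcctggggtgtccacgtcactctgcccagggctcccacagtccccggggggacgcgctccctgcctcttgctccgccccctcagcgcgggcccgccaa

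The Sohlh1 window held 5 CANNTG matches, 3 of them CACGTG, and the Sohlh2 window held 1 CANNTG match and no CACGTG. Of 32851 promoter windows of this length, 66.2% held CANNTG and 6.02% held CACGTG. These are matches of letters, and binding was not measured. A promoter was listed for 9 of the 10 genes.

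Sohlh2 (ENSMUSG00000027794.4, chromosome 3, 55182028 to 55209957, plus strand, mm10) stood at 10.2, 12.4, 18.1 and 6.25 CPM in control libraries 1 to 4 and at 174.6, 166.8, 181.2 and 169.5 CPM in cKO libraries 1 to 4. Every cKO library was above every control library, and the cKO libraries lay within a narrow band. The mean rose from 11.8 ± 4.97 to 173.0 ± 6.35 CPM (SD, n = 4 each), a 14.7-fold difference (log2 fold change 3.88, SE 0.23; edgeR adjusted p = 1.07e-08). Its last exon (55208887 to 55209957, 1071 bases, coding and 3′ untranslated) held 97.2% of its counts and rose by a log2 fold change of 3.92 (SE 0.23; edgeR adjusted p = 9.80e-09 at the exon level). At that level 26.2% of the 14052 exon identifiers tested were called higher and 27.3% lower.

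The rise of Sohlh2 was not limited to the 3′ end. Its exons before the last had 7 counts in all control libraries together and 93 in the cKO libraries, a ratio of 11.4 after scaling (95% Clopper-Pearson interval 5.32 to 29.1). The first exon of 87 bases had 0, 1, 1 and 0 counts in controls and 6, 6, 3 and 4 in cKO libraries. An internal exon of 257 bases had 0, 2, 1 and 0 counts in controls against 10, 10, 9 and 17. With last exons left out of every gene, the log2 fold change of Sohlh2 was 3.58. Intervals on counts cover counting error only, since the reads come from amplified cDNA without molecular identifiers. The annotated end of the transcript lies 21 bases past a polyadenylation hexamer, shown in capitals within 30 bases at chr3:55209919-55209948, plus strand, because oligo-dT priming starts from that end.

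Sohlh2 end: attgttttgtttAATAAAatgttttctctt

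Ccdc169, the next annotated gene upstream on the same strand, ends 9093 bases from the start of Sohlh2. It had 1, 1, 0 and 0 counts in controls and 5, 8, 5 and 8 in cKO libraries, too few to be tested. Its summed counts of 2 and 26 give a ratio of 11.2 (95% Clopper-Pearson interval 2.79 to 97.0).

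Sohlh1 (ENSMUSG00000059625.6, chromosome 2, 25842995 to 25847248, minus strand) had 0, 1, 0 and 1 counts in the control libraries and 9, 14, 22 and 26 in the cKO libraries. All cKO libraries were above all controls, although the highest reached only 4.87 CPM. The summed counts of 2 and 71 correspond to a ratio of 30.5 after scaling (95% Clopper-Pearson interval 8.13 to 256.4). Sohlh1 fell short of the expression filter of the test. With no filter it was called higher (log2 fold change 4.64, SE 0.66; edgeR adjusted p = 5.72e-11), in a fit that called 13.3% of 29551 genes higher and 12.7% lower. DESeq2 and the fits without control replicate 1, 2, 3 or 4 or without cKO replicate 1 also tested it, with log2 fold changes of 4.23 to 5.09 and adjusted p of 1.83e-05 to 1.59e-04. Its last exon of 365 bases held 71.2% of its counts, with 1 count in controls and 51 in cKO libraries, and the other exons together had 1 and 20.

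The partners and inhibitors of the bHLH factors moved unevenly. ID3, which lacks a DNA-binding region and holds bHLH partners away from DNA, rose from 10.4 ± 4.62 to 53.9 ± 9.12 CPM (SD, n = 4 each; log2 fold change 2.36, SE 0.26; edgeR adjusted p = 2.71e-06). Tcf4, an E protein that pairs with tissue bHLH factors, had a log2 fold change of 1.72 (SE 0.42; edgeR adjusted p = 0.00274), and Tcf12, another E protein, had -0.08 (adjusted p = 0.816).

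Figla, a bHLH factor needed for primordial follicles and for zona pellucida genes, was measured at 21.3, 27.0, 15.8 and 28.5 CPM in controls and at 19.7, 23.6, 16.3 and 25.1 CPM in cKO libraries. The groups overlapped almost fully. The means were 23.2 ± 5.82 and 21.2 ± 3.94 CPM. The log2 fold change of -0.13 (SE 0.22, edgeR adjusted p = 0.641) had an interval, 2 SE to either side, of -0.56 to 0.30. Without the TMM factors, with library sizes alone ("no scaling" below), the sign of the fold change turned, at 0.02. Figla (ENSMUSG00000030001.4) lies on chromosome 6 from 86016171 to 86020996, plus strand. Its coding first exon of 267 bases held 83.2% of the counts (log2 fold change -0.13, SE 0.23), and its last exon, of which 210 of 339 bases were countable, showed 0.06 (SE 0.31).

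Nobox, a homeobox factor that keeps early follicles growing and acts on Gdf9 and Bmp15, stood at 79.0, 135.2, 105.2 and 84.6 CPM in controls and at 144.0, 121.5, 122.3 and 142.9 CPM in cKO libraries. Control replicate 2 lay inside the cKO range, and the other 3 controls lay below it. The means were 101.0 ± 25.5 and 132.7 ± 12.4 CPM, with a log2 fold change of 0.39 (SE 0.17; interval 0.06 to 0.73; adjusted p = 0.0601, edgeR). Without control replicate 2 the value was 0.55 (adjusted p = 0.00603), without control replicate 1 it was 0.28 (adjusted p = 0.213) and without control replicate 4 it was 0.30 (adjusted p = 0.159). Over the alternatives that tested Nobox, the log2 fold change ran from 0.28 to 0.55. It passed the test in 4 of them, limma voom (0.42, adjusted p = 0.0429) included, and did not in 15. No scaling (0.55, edgeR adjusted p = 0.0155) and leaving out last exons (0.55, edgeR adjusted p = 0.0184) were also among the 4. Those settings shifted the log2 fold changes of genes by 0.16 and 0.17 against the main fit. With last exons only, Nobox was not tested.

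Most Nobox counts, 72.1%, fell on a coding exon of 291 bases (ENSMUSG00000029736.15, chromosome 6, minus strand, 43307383 to 43307673). That exon rose by a log2 fold change of 0.47 (SE 0.17; edgeR adjusted p = 0.0308). The call did not hold without control replicate 1 (0.36, adjusted p = 0.129), control replicate 4 (0.38, adjusted p = 0.0801), cKO replicate 1 (0.44, adjusted p = 0.0723) or cKO replicate 4 (0.48, adjusted p = 0.0561), nor with no filter (0.48, adjusted p = 0.0511). A second coding exon, of 232 bases, held 25.6% of the counts and had a log2 fold change of 0.25 (SE 0.21; edgeR adjusted p = 0.334). The last exon of Nobox had 1 count in all 8 libraries, so its 3′ end was not measured here.

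Lhx8, a LIM-homeobox factor of primordial and early growing oocytes, was barely counted. Its 14 counts in controls and 13 in cKO libraries give a ratio of 0.797 (95% Clopper-Pearson interval 0.345 to 1.83), so a difference within that range was not detectable at this depth. Of its 22 exon identifiers, 15 had no base free of another identifier, which limits what can be counted for it.

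Taf4b, the gonadal TFIID subunit, stood at 75.4, 82.6, 61.3 and 73.0 CPM in controls and at 55.6, 64.2, 84.3 and 53.7 CPM in cKO libraries. The cKO libraries spread on both sides of the controls. The log2 fold change was -0.18 (SE 0.17; interval -0.52 to 0.16; adjusted p = 0.382, edgeR), from 73.1 ± 8.85 to 64.4 ± 14.0 CPM. Its last exon of 2396 bases held 90.7% of the counts (log2 fold change -0.16, SE 0.19; edgeR adjusted p = 0.508), and neither its first exon (-0.41, adjusted p = 0.444) nor its internal exon of 600 bases (-0.06, adjusted p = 0.913) was called.

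Tbpl2, the TBP paralog that serves growing oocytes, was called lower in its last exon and was not called over the gene. The gene (ENSMUSG00000061809.8, chromosome 2, 24071721 to 24096595, minus strand) had 65.7, 95.3, 44.2 and 82.5 CPM in controls and 45.9, 51.6, 54.0 and 62.0 CPM in cKO libraries. The groups overlapped through control replicate 3, the lowest of all. The gene-level log2 fold change was -0.43 (SE 0.21, interval of 2 SE to either side -0.84 to -0.02, edgeR adjusted p = 0.0899). Without control replicate 3 it was -0.60 (adjusted p = 0.00732) and without control replicate 2 it was -0.28 (adjusted p = 0.254). With no scaling it was also -0.28 (adjusted p = 0.295), and with last exons left out of every gene it was -0.0036 (adjusted p = 0.989). Leaving out last exons shifted the log2 fold changes of genes by 0.17 against the main fit. In the main scaling, the exons of Tbpl2 before the last had 947 counts in controls and 986 in cKO libraries. Their ratio was 0.893 (95% Clopper-Pearson interval 0.816 to 0.978).

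The countable end of the last Tbpl2 exon (194 of its 343 bases, 24071721 to 24071914) had 11.1, 29.2, 5.79 and 12.8 CPM in controls and 1.99, 1.91, 1.5 and 3.93 CPM in cKO libraries. Every cKO library was below every control, and control replicate 2 was the highest. The mean fell from 14.7 ± 10.1 to 2.34 ± 1.09 CPM, a log2 fold change of -2.60 (SE 0.46; edgeR adjusted p = 2.03e-04 at the exon level). As a share of all Tbpl2 counts, this end held 16.9%, 30.7%, 13.1% and 15.5% in controls and 4.35%, 3.70%, 2.79% and 6.34% in cKO libraries. The other countable exons showed no such difference: the coding exon of 461 bases had a log2 fold change of -0.16 (SE 0.20; edgeR adjusted p = 0.535) and that of 92 bases -0.02 (SE 0.22; edgeR adjusted p = 0.954).

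**Figure D2:**
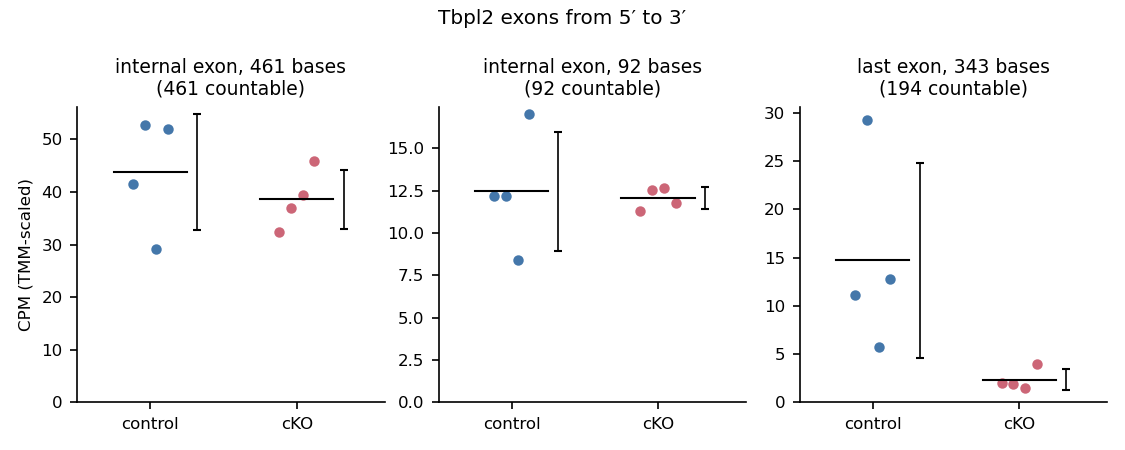
TMM-scaled CPM (vertical axes, from 0, one scale per exon) of the 3 tested Tbpl2 exons in transcript order, in 4 control (blue) and 4 cKO (red) libraries; points are libraries, horizontal lines means and vertical bars 1 SD. The groups overlap in both internal exons and stand apart in the last exon, where cKO libraries lie between 1.5 and 3.93 CPM.

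A test of exon usage, which asks whether an exon moved apart from the rest of its gene, could be made in 5 of the 10 factors. It called Tbpl2 (last exon -2.21 on the log2 scale relative to the gene; gene-level Simes adjusted p = 1.09e-04, edgeR diffSpliceDGE) and not Nobox, Figla, Taf4b or Bnc1, and 23.4% of the 2847 genes tested were called. Across the libraries, the share of counts on last exons was 75.8% ± 0.553 in controls and 78.1% ± 0.449 in cKO libraries (SD, n = 4 each), the other direction from Tbpl2 (exact two-sided permutation test, p = 0.0286, the lowest possible with 4 libraries a group, and 0.0714 adjusted over 5 library measures). A shorter last exon of Tbpl2, 24071915 to 24072063, is annotated inside the long one. Reads in that shared stretch meet 2 identifiers and are not counted, so the values speak only of the end that the long form has. The long last exon held no AATAAA and no ATTAAA on the transcript's strand.

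Of the core transcription machinery that works with these factors, Tbpl1, Gtf2b and Gtf2a1 rose and Taf3 fell. Tbpl1, another TBP paralog, rose from 6.18 ± 1.03 to 46.9 ± 5.19 CPM (SD, n = 4 each; log2 fold change 2.93, SE 0.19; edgeR adjusted p = 2.52e-08). Gtf2b, which encodes TFIIB, rose from 298.9 ± 51.0 to 576.0 ± 20.6 CPM (log2 fold change 0.95; adjusted p = 2.85e-05). Gtf2a1, a TFIIA subunit gene, had a log2 fold change of 0.52 (adjusted p = 0.0161), and Taf3, of TFIID, had -0.63 (adjusted p = 0.0343). Tbp itself was at 2.15 ± 0.686 and 3.31 ± 1.37 CPM and was not called (adjusted p = 0.183). Taf4 was not called either (log2 fold change 0.28, edgeR adjusted p = 0.138). Of the 22 listed partners, paralogs and inhibitors of the 10 factors, 13 were tested. Of these 6 (46.2%) were called higher and 2 (15.4%) lower, beside 27.0% and 27.9% of all genes tested, and the median log2 fold change was 0.52 beside 0.02.

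**Figure D3:**
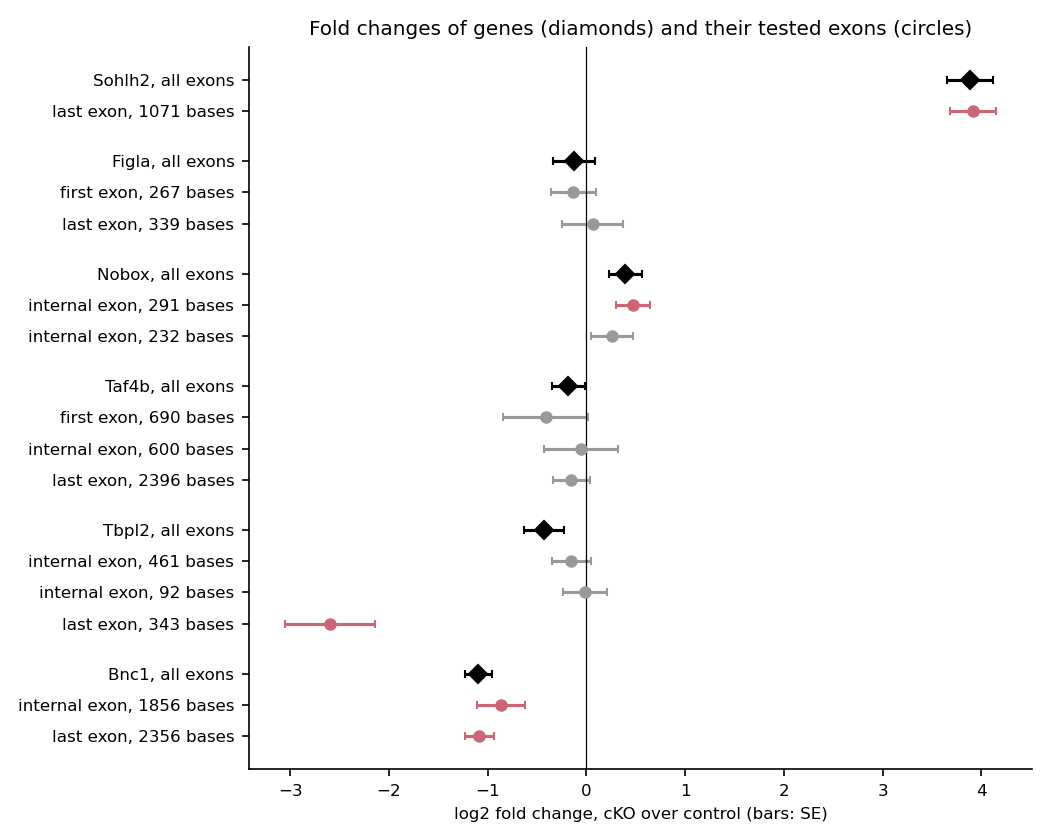
Log2 fold change of cKO over control (horizontal axis, bars 1 SE) for the 6 tested genes (black diamonds) and their 13 tested exons (circles, red where the adjusted p is under 0.05 and grey otherwise), ordered 5′ to 3′ within each gene. The last exon of Tbpl2 at -2.60 stands apart from its other exons, while the 2 exons of Bnc1 lie near the value of the whole gene.

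Bnc1 encodes basonuclin 1, a zinc finger protein known to act on ribosomal RNA genes and on genes read by RNA polymerase II in the oocyte. The gene (ENSMUSG00000025105.9, chromosome 7, 81966672 to 81992292, minus strand) stood at 506.4, 541.9, 374.8 and 515.1 CPM in controls and at 232.2, 231.8, 236.5 and 206.2 CPM in cKO libraries. The lowest control, replicate 3, was still above every cKO library. The mean fell from 484.5 ± 74.7 to 226.7 ± 13.8 CPM (SD, n = 4 each), which is 46.8% of the control level (log2 fold change -1.10, SE 0.14; edgeR adjusted p = 8.00e-06).

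Both tested Bnc1 exons fell. The last exon (81966672 to 81969027, 2356 bases) held 93.1% of the counts and had 480.8, 509.9, 326.7 and 493.8 CPM in controls against 214.2, 218.6, 218.0 and 187.1 CPM, a log2 fold change of -1.09 (SE 0.15; edgeR adjusted p = 2.02e-05). The large internal coding exon of 1856 bases fell from 31.5 ± 11.8 to 17.0 ± 2.56 CPM (SD; log2 fold change -0.86, SE 0.24; edgeR adjusted p = 0.00749). With last exons left out of every gene, Bnc1 fell by 0.70 on the log2 scale. Its paralog Bnc2 also fell, from 17.8 ± 8.18 to 9.42 ± 0.406 CPM (SD; log2 fold change -0.91, SE 0.27; edgeR adjusted p = 0.0108).

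Zfp57, whose KRAB zinc finger protein keeps imprinted control regions methylated in the early embryo, had 26 counts in controls and 23 in cKO libraries, a ratio of 0.759 (95% Clopper-Pearson interval 0.414 to 1.38). Its exons had too few counts for a test of exon usage, so whether they moved apart was not tested. A coding exon of 1238 bases had 22 and 9 counts (ratio 0.351, 95% Clopper-Pearson interval 0.142 to 0.793), with levels that overlapped between the groups. The noncoding exon of 178 bases had 4 and 9 counts (ratio 1.93, 95% Clopper-Pearson interval 0.539 to 8.58). That of 278 bases had 0 counts in controls and 0, 0, 2 and 3 in cKO libraries 1 to 4. Of the 31 exon identifiers of Zfp57, 24 had no countable base. Among 18 imprinted genes near regions bound by ZFP57, 8 were tested, of which 2 were higher and 2 lower (25% each, close to the 27.0% and 27.9% of all genes), with a median log2 fold change of 0.02. Kcnq1ot1, a long noncoding RNA, fell from 6.94 ± 2.92 to 1.47 ± 0.833 CPM and Grb10, a signalling adaptor, rose from 31.1 ± 5.53 to 80.4 ± 23.4 CPM (SD, n = 4 each; log2 fold changes -2.18 and 1.37; adjusted p = 4.44e-04 and 6.74e-05, edgeR). Nap1l5 rose and Peg3 fell, with log2 fold changes of 1.53 (adjusted p = 0.0164) and -0.47 (adjusted p = 0.0281).

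Nr6a1 encodes the orphan nuclear receptor GCNF, known to repress Gdf9 and Bmp15. It had 10, 5, 10 and 11 counts in controls and 5, 4, 3 and 5 in cKO libraries, and its scaled levels, 1.20 to 2.75 CPM against 0.645 to 1.11 CPM, did not overlap. The summed counts of 36 and 17 give a ratio of 0.405 (95% Clopper-Pearson interval 0.213 to 0.740). It was too low for the main test. With no filter it was called lower (log2 fold change -1.27, SE 0.51; edgeR adjusted p = 0.0476), but DESeq2 gave -1.29 with an adjusted p of 0.0843. More than any other exon, an annotated noncoding last exon of 415 bases (chromosome 2, 38738727 to 38739141, 160 countable bases) carried its counts, with 9, 2, 6 and 6 in controls and 0, 3, 1 and 1 in cKO libraries, so the values bear little on the coding transcript.

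Per kilobase of countable exon, the order of mean levels in controls was Bnc1 at 106.5 ± 16.4, Nobox at 90.7 ± 22.9, Tbpl2 at 67.3 ± 20.7, Figla at 41.8 ± 10.5, Taf4b at 14.2 ± 1.72 and Sohlh2 at 4.98 ± 2.10 CPM per kb (SD, n = 4). The mean ± SD ranges of neighbours overlapped from Bnc1 through Nobox and Tbpl2 to Figla, and Taf4b and Sohlh2 lay below them and apart. The remaining factors stood lower, from Zfp57 at 1.13 CPM per kb through Lhx8 at 0.857 and Nr6a1 at 0.434 to Sohlh1 at 0.0949. In the cKO libraries the order was Nobox at 119.2 ± 11.2, Sohlh2 at 73.2 ± 2.69, Tbpl2 at 49.9 ± 6.25, Bnc1 at 49.8 ± 3.04, Figla at 38.2 ± 7.12 and Taf4b at 12.5 ± 2.71 CPM per kb. The range of Tbpl2 overlapped those of Bnc1 and of Figla there, and Sohlh2 had moved from sixth to second place. Sohlh1 at 2.83 CPM per kb was now above Zfp57, Lhx8 and Nr6a1, which were at 0.870, 0.657 and 0.175. These levels understate genes with short exons, whose reads more often meet more than 1 identifier.

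Genes that these factors are reported to act on formed a further list. Of 22 listed targets, 20 were tested, none was called higher and 8 (40%) were called lower, beside 27.0% and 27.9% of all genes tested, and the median log2 fold change was -0.39 beside 0.02. The oocyte growth factors Bmp15 and Gdf9, both reported targets of NOBOX and of NR6A1, fell from 18799 ± 3751 to 7334 ± 1455 CPM and from 13582 ± 2389 to 8130 ± 562.2 CPM (SD, n = 4 each; log2 fold changes -1.36 and -0.74; adjusted p = 6.53e-06 and 2.18e-04, edgeR). Mos, the kinase that holds the mature egg in meiosis, and Gpr149, an oocyte receptor, fell by 0.61 and 0.67 on the log2 scale (adjusted p = 3.19e-04 and 5.32e-04). The zona pellucida genes reported as FIGLA targets gave mixed values. Zp1 fell by 0.46 (adjusted p = 0.0159), while Zp2 and Zp3 had log2 fold changes of 0.17 and -0.05 and were not called. Zp2 rested on few counts, 80 in controls and 104 in cKO libraries (SE of its log2 fold change 0.25). Several of these targets, Bmp15 and Gdf9 among them, are also on the list of oocyte markers, so that list is no separate measure of them.

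**Figure D4:**
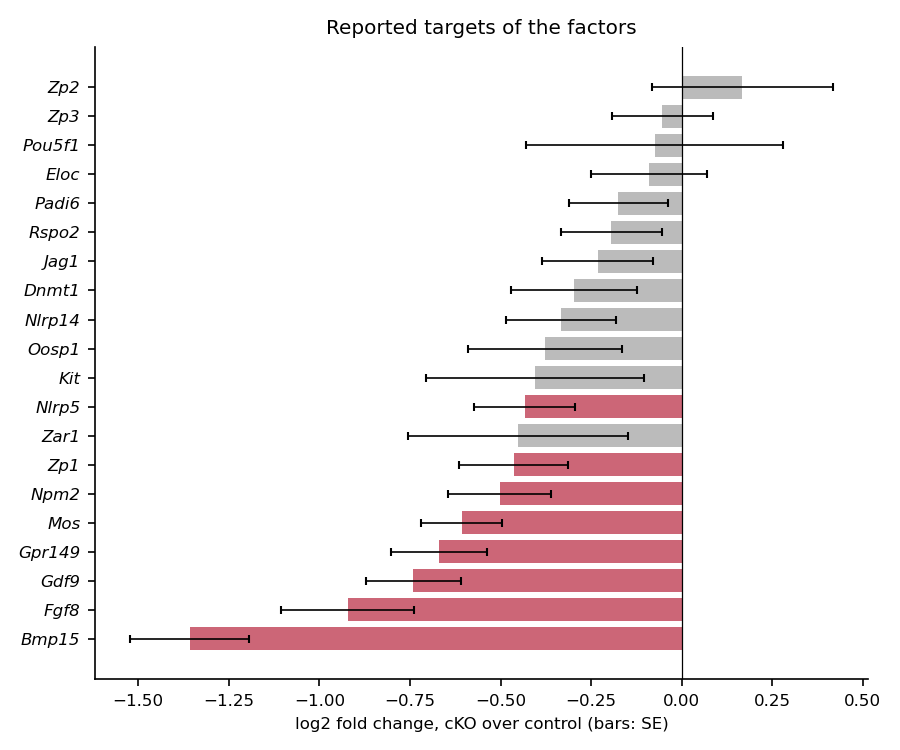
Log2 fold change of cKO over control (horizontal axis, bars from 0 with 1 SE) for the 20 tested genes reported as targets of the factors; red bars have an adjusted p under 0.05 and grey bars do not. The 8 called genes all lie below 0, from Nlrp5 at -0.43 to Bmp15 at -1.36.

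Other factors of oocyte growth moved in both directions. Of 16 listed, 11 were tested, 2 (18.2%) were higher and 4 (36.4%) lower beside 27.0% and 27.9% of all genes, with a median log2 fold change of -0.07. Stat5a, a signal-dependent factor, rose from 8.88 ± 0.795 to 16.3 ± 1.32 CPM (SD, n = 4 each; log2 fold change 0.87; adjusted p = 0.00106, edgeR), and Sp1, a broadly used activator, had 0.56 (adjusted p = 0.00969). Pou2f1 and Dynll1 fell, each with a log2 fold change of -0.75 (adjusted p = 0.00923 and 0.0106). Foxo3, which holds primordial follicles at rest, was at 1375 ± 209.9 and 1314 ± 75.2 CPM and was not called.

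Markers of cumulus and granulosa cells, which surround the oocyte, summed to 240.9 to 560.3 CPM in controls and 429.4 to 907.5 CPM in cKO libraries (exact two-sided permutation test, p = 0.0571; 0.0714 after adjustment over 5 library measures). Of 16 such markers, 10 were tested, with 3 higher and 3 lower (30% each), close to the 27.0% and 27.9% of all genes tested. Ptgs2, a prostaglandin synthase gene, rose from 3.36 ± 1.15 to 25.0 ± 5.84 CPM (SD, n = 4 each; log2 fold change 2.88; adjusted p = 5.89e-07), Nr5a2, a nuclear receptor gene, from 138.7 ± 36.4 to 322.8 ± 26.8 CPM (1.22; adjusted p = 2.33e-05), and Inha, an inhibin subunit gene, from 66.1 ± 29.4 to 173.5 ± 108.7 CPM (1.39; adjusted p = 0.00977). The receptor gene Fshr, the aromatase gene Cyp19a1 and the inhibin subunit gene Inhbb fell, with log2 fold changes of -1.64, -1.11 and -1.48, and Nr5a1 had no count in any library. Vessel, blood and immune markers summed to 5.00 to 12.4 CPM and 8.71 to 19.5 CPM (p = 0.0571 by the same exact test). Of 9 such markers, 3 were tested, with 2 (66.7%) higher and 1 (33.3%) lower, beside the same 27.0% and 27.9%. C1qa, a complement gene of macrophages, had 2, 0, 1 and 0 counts in controls and 32, 22, 39 and 42 in cKO libraries (log2 fold change 5.07; adjusted p = 1.40e-06), Kdr rose (0.90; adjusted p = 0.0469) and Pecam1 fell (-1.40; adjusted p = 0.00673). Ptprc, Adgre1, Cd74, Hba-a1 and Hbb-bs had no count in any library. Only bases that no other identifier covers are counted, so these zeros and that of Nr5a1 do not show that the RNA was absent. Theca and stroma markers summed to at most 4.25 CPM in any library, and none of the 8 was tested. The part of such cells in the values of the 10 factors, the rise of Sohlh2 and Sohlh1 included, was not tested.

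The genes most like the called factors across the 8 libraries were named by Pearson's r of log2(CPM + 1), as a description, among 7990 protein-coding genes. For Sohlh2 they were Exoc2 (r = 0.998) and Zfp623 (r = 0.997), and 1161 genes had an r above 0.9. For Bnc1 they were Zfp664 (r = 0.994) and Kifc3 (r = 0.991), with 654 genes above 0.9. Nobox, the next in order of p, was nearest to Idh3a (r = 0.972) and Clec2l (r = 0.971), with 49 genes above 0.9. A difference between the groups alone gives many genes a high r, so it does not single these genes out.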

How the data were processed

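The deposited files give raw read counts per Ensembl exon identifier for 8 libraries of polyadenylated RNA, primed with oligo-dT, switched at the 5′ end, amplified and fragmented by tagmentation, and read as 150-base pairs, per the labels' protocols. The authors' tools were STAR and HTSeq with mm10, per the submitters' processing notes, and neither the counting options nor the annotation release is stated in those notes. Of 496288 identifiers, 494230 (99.6%) matched GENCODE M21, and the rest held 0.252% of counts. HTSeq's summary lines stayed out of library sizes and tests. Counts were summed per gene and tested with edgeR 4.0.16 (R 4.3.3): default expression filter with a minimum count of 10, TMM scaling, quasi-likelihood test, Benjamini-Hochberg over all genes or exons tested, threshold 0.05, and diffSpliceDGE for exon usage. DESeq2 1.42.0 and limma 3.58.1 served as alternatives, with other scalings, filters, exon subsets and left-out libraries. The scripts were tested on simulated data. Libraries of a group differed by more than sampling noise (smallest chi-square per degree of freedom 5.11). Gene names and positions come from GENCODE M21, promoters from RefSeq.

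The 10 factors and all lists were chosen with earlier results of these data known. The text names all 10, and of each list up to 4 called genes of smallest p, and the 2 genes most correlated with each of the 3 factors of smallest p. Other list genes that are named, called or not, were chosen after their values were seen. Not every called list gene is named. The list medians and counts carry no test.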

Additional observations from a re-analysis of the deposited data

Results flagged for a closer look

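In 76 groups of 4 libraries, formed by the factors' levels, exon levels and library measures, 6 had 1 library further from the others than Dixon's 95% limit, where chance alone flags about 1 group in 20. Bnc1 in cKO replicate 4 was at 206.2 CPM, against 231.8 to 236.5 CPM in the other cKO libraries. Its last exon there was at 187.1 CPM, against 214.2 to 218.6 CPM. The same exon in control replicate 3 was at 326.7 CPM, against 480.8 to 509.9 CPM, still above all cKO libraries. The internal exon of Bnc1 in cKO replicate 2 was at 13.2 CPM, against 17.9 to 18.7 CPM. The last exon of Taf4b in control replicate 3 was at 49.5 CPM, against 70.3 to 74.2 CPM. The summed level of oocyte markers in control replicate 3 was 47235 CPM, against 34908 to 36521 CPM. Control replicate 3 thus appears in 3 of the 6, low for both exons and high for the marker sum.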

How the results depend on the processing

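Sohlh2 stayed called higher and Bnc1 lower in all 20 alternative gene-level settings, with log2 fold changes in leave-one-out fits of 3.66 to 4.16 and -1.20 to -1.04, and no result turned its direction past the threshold. A minimum count of 50 left fewer features to test and gave 1844 genes higher and 1896 lower, 2079 exons higher and 2087 lower, 177 genes with changed exon usage and 0 of the factors, since the last exon of Tbpl2 was no longer kept. Leaving out last exons gave 973 genes higher and 995 lower. The count of factors called higher was 2 with no scaling, with no filter, with last exons left out, with DESeq2 and with limma voom (Nobox or Sohlh1 joining Sohlh2), and 1 to 3 in leave-one-out fits. In that order, 3499 of 10673, 3921 of 29551, 973 of 4189, 3315 of 29551 and 2937 of 10673 genes were called higher. Leave-one-out fits called 2602 to 3068 genes higher. The count of factors called lower was 2 with no filter (Nr6a1 joining Bnc1), with last exons only and with protein-coding genes only (Tbpl2 joining Bnc1 at -2.66 and -0.52), and 1 to 2 in leave-one-out fits. In that order, 3748 of 29551, 2423 of 8737 and 2088 of 7991 genes were called lower, and 2764 to 3018 genes in leave-one-out fits. Factor exons called higher numbered 5 with no filter and 1 to 2 in leave-one-out fits. Of all exons, 4856 and 3417 to 3990 were called higher there, and 3685 in the main fit. Compared with the main fit, no scaling shifted the log2 fold changes of genes by 0.16 and leaving out last exons by 0.17. Nobox had 0.55 in both settings, of which those shifts are part. Same-numbered libraries did not deviate together (correlations of 0.11, -0.06, 0.10 and 0.06), so the replicate numbers were not taken as pairs; with the replicate block 2885 genes were higher and 2908 lower, 3663 exons higher and 3726 lower, 646 genes had changed exon usage, and the same counts of factors and factor exons were called. Depth limits Sohlh1, Lhx8, Zfp57 and Nr6a1, with 27 to 73 counts over the 8 libraries.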

Other observations

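The letters GGACT, a common form of the sequence in which m6A is written, were counted in 1 coding transcript of each gene. Other forms of that sequence were not searched, and m6A was not measured here. Of the 10 factors, 6 held GGACT in the last exon: Nr6a1 held 5, Bnc1 and Zfp57 held 3 each, Lhx8 and Taf4b held 2 each, and Nobox held 1. The last exons of Sohlh1, Sohlh2, Figla and Tbpl2 held none, and were 365, 1071, 339 and 343 bases long. In 7990 tested protein-coding genes, 72.6% of last exons held at least 1, with a median of 0.792 per kb. The median last exon of those genes was longer, at 1624.5 bases, so the share is no like measure for short last exons. Sohlh1, Sohlh2 and Figla held none in the whole transcript of 1289, 2364 and 759 bases, as did 7.75% of those 7990 genes. Bnc1 held 6 in 4646 bases.

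Some genes near the factors were called as well. Add2, which lies 7685 bases from Figla, rose from 11.5 ± 2.77 to 19.8 ± 4.15 CPM (SD, n = 4 each; log2 fold change 0.78, SE 0.22; adjusted p = 0.00812, edgeR), while Figla itself was not called. H2-M5 and 2410137M14Rik, near Zfp57, had log2 fold changes of 1.31 and 1.22 (adjusted p = 1.43e-04 and 0.00311, edgeR). Olfml2a, near Nr6a1, had -0.85 (adjusted p = 0.0325, edgeR). The other tested gene within 30 kb of a factor, Gm19265 near Figla, had 1.25 and was not called (adjusted p = 0.0661, edgeR). Over all genes tested, 27.0% were called higher and 27.9% lower. These genes were chosen after their values were seen.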
